A study of Mus musculus with 29 samples.

Results

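Csf1r, Csf1, Il34, Cx3cr1 and Cx3cl1 are the genes of the ligand-receptor pairs through which microglia receive signals from the cells around them. They were taken by gene symbol from the gene table of a TRAP-RNAseq study of mouse brain, in which they fill 5 of 36172 gene rows. TRAP pulls down ribosomes that carry an EGFP-tagged protein, with the RNA they are translating. The tag was switched on by tamoxifen, injected daily on 5 consecutive days at about 3 months of age, in mice of both sexes. The 3 Aldh1l1-NuTRAP mice were Aldh1l1-cre/ERT2 +/wt; NuTRAP flox/wt, a line that tags astrocytes. The 6 Cx3cr1-NuTRAP mice were Cx3cr1-cre/ERT2 +/wt; NuTRAP flox/wt, a line that tags microglia. In this line the Cre is knocked into Cx3cr1, so these mice keep 1 unmodified copy of that gene, and the Cre driver is also active in other cells that use Cx3cr1, such as border macrophages and some monocytes. Brains of this line were collected weeks after tamoxifen, a delay the study used so that tagged monocytes in the circulation would be replaced. Each mouse gave a negative fraction (RNA left unbound) and a positive fraction (RNA on the beads) from a hemibrain homogenate. The Cx3cr1-NuTRAP mice also gave the cleared homogenate as input, and 5 of them gave whole tissue, which is brain RNA isolated conventionally. No input or whole tissue library of the astrocyte line was analysed here.

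CSF1R is a receptor tyrosine kinase on which microglia depend for survival, and CSF1 and IL-34 are its ligands. In the brain, Il34 is known mainly from neurons, and Csf1 from astrocytes, oligodendrocytes and other cells. CX3CL1, or fractalkine, is a chemokine that neurons hold at their membrane and that proteases can release, and CX3CR1 is its G protein-coupled receptor on microglia. The data therefore address which side of each pair is found in the tagged RNA of astrocytes and of microglia, and how receptor and ligand stand to each other in every fraction.

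Total counts over the 29 libraries ranged from 4260949 to 26857866, with a median of 21017054. Levels are given as CPM, the count of a gene scaled to the total of its library. Whole tissue of mouse 210 had the lowest total and stood apart in Csf1r and Cx3cr1, and both fractions of Aldh1l1-NuTRAP mouse 290 had the lowest totals of their group. The positive fraction of Cx3cr1-NuTRAP mouse 194 was the richest in microglial RNA. Values with and without these libraries are given where they matter. Markers of the tagged cells rose in the positive fractions. Aldh1l1 and Gfap, markers of astrocytes, were at 499 to 579 CPM and 2209 to 2444 CPM in the Aldh1l1-NuTRAP positive fractions. In the negative fractions they were at 62.5 to 86.8 CPM and 226 to 270 CPM. C1qa, P2ry12 and Tmem119, markers of microglia, summed to 715 to 1737 CPM in the Cx3cr1-NuTRAP positive fractions and to 80.2 to 93.0 CPM in the inputs. These positive fractions kept RNA of other cells. By mean, the study's neuron, astrocyte and oligodendrocyte lists summed to 25316, 20134 and 20608 CPM, against 28934, 24876 and 26733 CPM in the inputs. The study's microglia list summed to 23468 CPM, against 5328 CPM. Below, microglial RNA names this positive fraction, not RNA of microglia alone. The border macrophage list (Mrc1, Cd163, Lyve1, Pf4, Siglec1, F13a1 and Cbr2) also rose in the Cx3cr1-NuTRAP positive fraction, with summed levels of 76.8 to 242 CPM against 11.3 to 26.6 CPM. Of its genes, 7 of 7 were higher than in the input, where 48.9% of all genes were called in either direction. Only 3 of them passed the filter on low counts in negative fraction against input. The others entered through the positive fraction, so the filter partly fixed the count of 7.

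Positions are those of mm10. Csf1 is at chr3:107741048-107760469 on the minus strand. Il34 is at chr8:110741829-110805903 on the minus strand and overlaps the antisense genes Gm15894 and Gm15895. The study aligned reads by strand, and whether reads of these genes enter the count of Il34 was not tested. Cx3cr1 is at chr9:120048683-120068296 on the minus strand, and Cx3cl1 is at chr8:94772180-94782426 on the plus strand. Promoter sequences of RefSeq (GRCm38.p6, 250 bases before to 50 bases after the start) are given for 3 of the 5 genes. Il34 had no match, and the sequence of Csf1r is not reported here. The 3 sequences are shown because the receptor and ligand of the fractalkine pair, and the ligand that rose in astrocytes, followed different patterns across the fractions. Capitals mark the motifs found on either strand among 3 that were searched, namely GAGGAA (a core bound by PU.1 and its relatives), GGGCGG (the GC box) and TATAAA (the TATA box). On the opposite strand GAGGAA reads TTCCTC.
Cx3cr1, chr9:120068247-120068546, minus strand: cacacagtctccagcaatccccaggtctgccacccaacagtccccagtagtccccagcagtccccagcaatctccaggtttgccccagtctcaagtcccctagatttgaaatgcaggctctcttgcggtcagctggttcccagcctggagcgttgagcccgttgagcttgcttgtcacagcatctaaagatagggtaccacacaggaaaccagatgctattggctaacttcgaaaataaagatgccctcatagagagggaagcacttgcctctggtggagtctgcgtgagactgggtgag
Cx3cl1, chr8:94771930-94772229, plus strand: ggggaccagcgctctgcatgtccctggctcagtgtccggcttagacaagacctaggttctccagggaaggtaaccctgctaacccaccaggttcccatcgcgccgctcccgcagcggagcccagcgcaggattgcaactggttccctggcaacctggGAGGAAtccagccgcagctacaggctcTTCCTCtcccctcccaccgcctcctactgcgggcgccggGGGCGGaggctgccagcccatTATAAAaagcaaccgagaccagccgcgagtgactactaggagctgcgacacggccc
Csf1, chr3:107760420-107760719, minus strand: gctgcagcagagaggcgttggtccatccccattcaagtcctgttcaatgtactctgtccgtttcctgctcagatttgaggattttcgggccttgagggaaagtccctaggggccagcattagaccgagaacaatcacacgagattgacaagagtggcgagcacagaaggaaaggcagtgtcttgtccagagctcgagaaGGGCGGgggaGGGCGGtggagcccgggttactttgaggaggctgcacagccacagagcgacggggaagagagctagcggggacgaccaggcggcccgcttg
The Cx3cl1 window held GAGGAA at positions 158 and 185, GGGCGG at position 224 and TATAAA at position 245, and the Csf1 window held GGGCGG at positions 200 and 210, counted from 1 at the 5′ end. The Cx3cr1 window held none of these letters. Of 32851 promoter windows of the same length, 28.3% held GAGGAA, 35.7% GGGCGG and 13.6% TATAAA. The Cx3cr1 window had 5 CpG dinucleotides and 54.3% G and C, the Cx3cl1 window 19 CpG and 64.7%, and the Csf1 window 16 CpG and 58.7%, beside medians of 7 CpG and 52.7% over all windows.

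Csf1r, the receptor for both CSF1 and IL-34, was the member that differed most between fractions. It lies at chr18:61105572-61131139 of mm10 on the plus strand and holds the microRNA gene Mir6983. In the 6 Cx3cr1-NuTRAP positive fractions it lay between 592 CPM (mouse 209) and 1556 CPM (mouse 194), with a median of 851 CPM. The 6 inputs lay between 79.6 and 86.7 CPM (median 86.2 CPM), the 6 negative fractions between 63.2 and 76.5 CPM (median 74.1 CPM), and whole tissue was at 71.2, 75.3, 71.6, 103.7 and 76.1 CPM in mice 192, 194, 209, 210 and 277. The positive fractions stood far above every other library, and mouse 210 stood above the rest of whole tissue. Within a mouse, the positive fraction held 6.87 to 19.5 times the level of its own input.

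Against input, Csf1r was higher by 3.45 ± 0.21 (log2 fold change ± SE, edgeR adjusted p = 4.12e-08), where 48.9% of the 13838 genes tested were called in either direction at the 0.05 threshold. It ranked 77 of those 13838 genes from the top. It was higher by 3.69 ± 0.21 than in the negative fraction (edgeR adjusted p = 1.81e-08), where 24.3% of genes were called, and by 3.56 ± 0.25 than in whole tissue (edgeR adjusted p = 5.16e-07), where 51.8% were called. Without the whole tissue library of mouse 210 the last value was 3.64.

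In astrocyte RNA Csf1r was low. The Aldh1l1-NuTRAP positive fractions of mice 290, 293 and 294 held 16.5, 8.40 and 7.65 CPM, and their negative fractions 79.4, 82.3 and 83.7 CPM. The groups did not overlap, and the positive fraction was lower by 2.58 on the log2 scale (log2 fold change -2.58 ± 0.32, edgeR adjusted p = 0.000541), where 51.6% of the 13319 genes tested were called. The microglial markers C1qa, P2ry12 and Tmem119 together were at 11.6 to 24.3 CPM in these positive fractions and at 61.9 to 110 CPM in the negative fractions, so they were not at 0. Csf1r amounted to 0.607 to 0.727 of that sum in the positive and to 0.721 to 1.35 in the negative fractions, and the part of residual microglial RNA in its level in astrocyte RNA was not tested. Over the whole microglia list, 33 genes were higher and 122 lower among 211 tested, with a median log2 fold change of -1.27 against 0.04 for all genes, although the summed level of the list was higher in the positive fractions (7447 to 10656 CPM) than in the negative fractions (5056 to 6256 CPM).

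Cx3cr1, the fractalkine receptor, followed Csf1r in microglial RNA at a lower level. In the Cx3cr1-NuTRAP positive fractions it ranged from 199 CPM (mouse 209) to 436 CPM (mouse 194), with a median of 249 CPM. The inputs lay between 25.04 and 28.8 CPM (median 27.3 CPM) and the negative fractions between 22.6 and 28.7 CPM (median 26.1 CPM). Whole tissue was at 22.6, 25.9, 22.0, 39.6 and 21.7 CPM in mice 192, 194, 209, 210 and 277, so that mouse 210 stood above the rest.

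Cx3cr1 was higher in the positive fraction than in input by 3.35 ± 0.17 (edgeR adjusted p = 1.56e-08), than in the negative fraction by 3.44 ± 0.18 (edgeR adjusted p = 1.47e-08) and than in whole tissue by 3.44 ± 0.24 (edgeR adjusted p = 4.86e-07). It ranked 94 of 13838 genes against input. The positive fraction held 7.30 to 15.6 times the level of the input of the same mouse. In astrocyte RNA it was at 13.3, 4.38 and 5.29 CPM in mice 290, 293 and 294, against 53.3, 49.6 and 41.6 CPM in their negative fractions, a log2 fold change of -2.32 ± 0.43 (edgeR adjusted p = 0.00347). As with Csf1r, mouse 290 had the highest level in the positive fraction, and without this mouse the mean there was 4.84 CPM in place of 7.67 CPM and the log2 fold change -2.92.

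**Figure D1:**
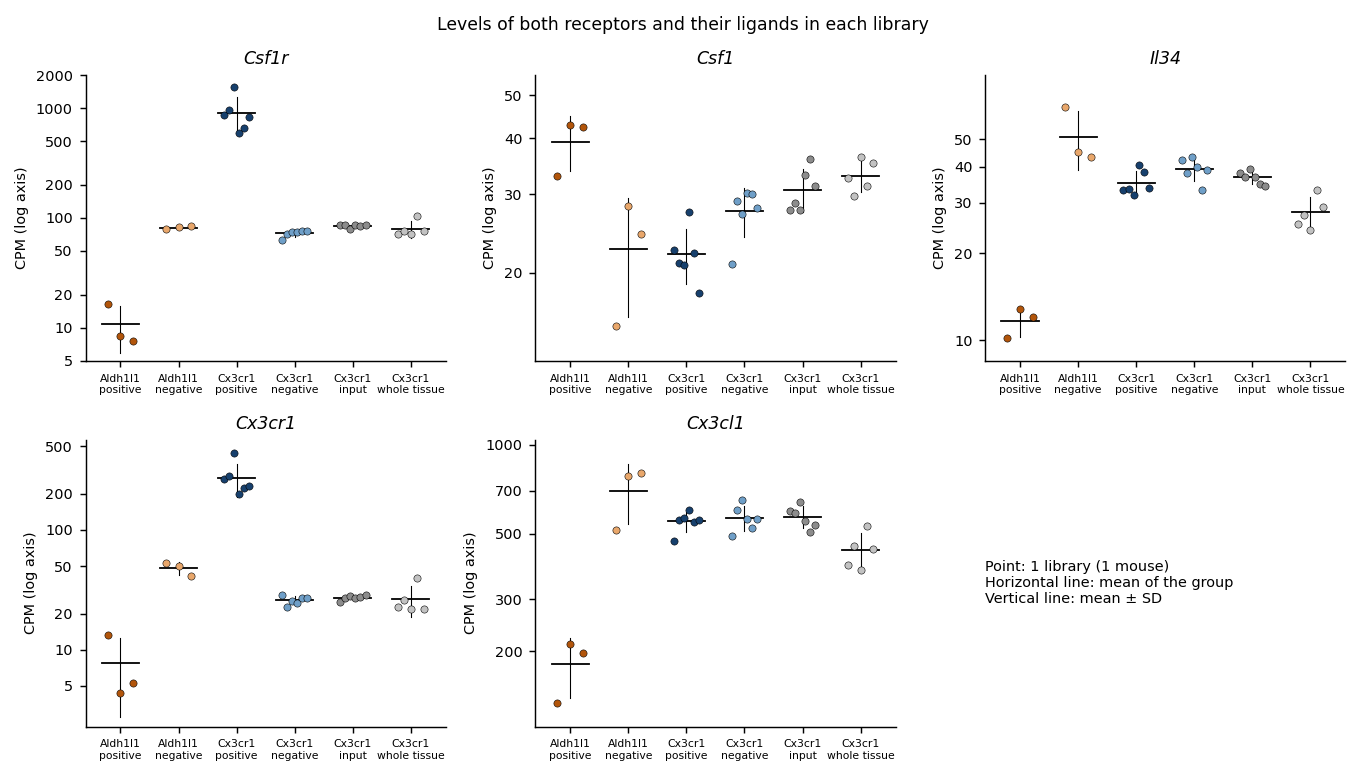
CPM of each gene in each library (points, log axis, a different range in each panel), with the mean and SD of the 6 groups. Both receptors stand apart in the Cx3cr1-NuTRAP positive fractions (592 to 1556 CPM for Csf1r, 199 to 436 CPM for Cx3cr1), Csf1 is at its highest mean in the Aldh1l1-NuTRAP positive fractions, and Il34 and Cx3cl1 are at their lowest there.

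The spread of both receptors between mice followed the microglial markers. The coefficient of variation of Csf1r over the 6 positive fractions was 37.7% in CPM and 6.05% when divided by the summed CPM of C1qa, P2ry12 and Tmem119. For Cx3cr1 the corresponding values were 31.0% and 6.31%. Mouse 194 was highest in Csf1r, Cx3cr1 and the marker sum (1737 CPM), and mouse 209 was lowest in all 3 (715 CPM for the marker sum). The inputs of mice 194 and 209 were at 82.0 and 80.2 CPM for the marker sum. Their positive fractions were at 22303 and 28193 CPM for the study's neuron list. In RNA of a bulk fraction, fewer cells of a type and less RNA per cell cannot be told apart, and the part of RNA of other cells in this spread was not tested. As a description over all 29 libraries, which share mice and fractions, Pearson's r between log2 CPM of Csf1r and Cx3cr1 was 0.98.

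The receptors differed between the lines in relation to each other. The ratio of Csf1r to Cx3cr1 in CPM was 1.24 to 2.01 in the 6 Aldh1l1-NuTRAP libraries and 2.21 to 3.57 in the 23 Cx3cr1-NuTRAP libraries, whatever the fraction, and the ranges did not overlap. Within the negative fractions, Cx3cr1 was at 53.3, 49.6 and 41.6 CPM in Aldh1l1-NuTRAP mice 290, 293 and 294 and at 28.7, 22.6, 25.3, 24.6, 27.2 and 26.9 CPM in Cx3cr1-NuTRAP mice 155, 192, 194, 209, 210 and 277. All 3 Aldh1l1-NuTRAP libraries lay above all 6 of the other line.

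This difference in Cx3cr1 was 0.93 ± 0.11 on the log2 scale (edgeR adjusted p = 0.0172), in a comparison where 0.25% of genes, 34 of 13613, were called. Cx3cr1 ranked 70 of 13613 genes by fold. Csf1r differed by 0.21 ± 0.07 (edgeR adjusted p = 0.239) and none of the other 4 members was called with all mice, although Cx3cl1 was without Aldh1l1-NuTRAP mouse 290 (0.49, edgeR adjusted p = 0.0422), nor was any of the 223 tested genes of the microglia list, whose median was 0.07 against 0.01 for all genes. Relative to C1qa, P2ry12 and Tmem119 together, Cx3cr1 was at 0.484 to 0.673 in the Aldh1l1-NuTRAP negative fractions and at 0.261 to 0.322 in the Cx3cr1-NuTRAP negative fractions. The call was not stable: the size of the difference was 0.83 to 1.03 over 15 alternatives, but the adjusted p was 0.0686 with all 6 groups in one fit, and between 0.0540 and 0.145 without Cx3cr1-NuTRAP mouse 192, 209, 210 or 277 or Aldh1l1-NuTRAP mouse 293. Genotype, line and the set of mice cannot be told apart here, and all Cx3cr1-NuTRAP libraries carry the knock-in at Cx3cr1.

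**Figure D2:**
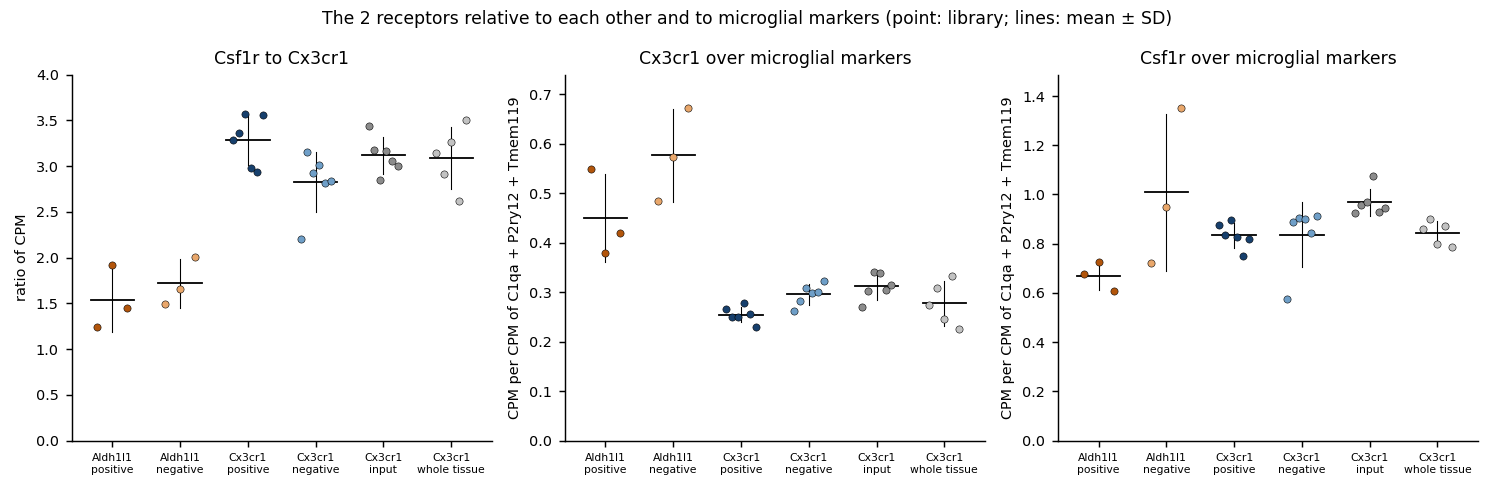
Left, the ratio of Csf1r to Cx3cr1 in CPM in each library by group. Middle and right, the CPM of Cx3cr1 and of Csf1r divided by the summed CPM of C1qa, P2ry12 and Tmem119. Points are libraries, lines the mean and SD. The Csf1r to Cx3cr1 ratio is 1.24 to 2.01 in both Aldh1l1-NuTRAP groups and 2.21 to 3.57 in the 4 Cx3cr1-NuTRAP groups.

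Depletion of the receptors from the unbound RNA was small. Csf1r was lower in the negative fraction than in the input of the same mouse in 6 of 6 Cx3cr1-NuTRAP mice, at 0.733 to 0.929 of the input. The log2 fold change was -0.22 ± 0.05 (edgeR adjusted p = 0.0294), in a comparison where 6.11% of genes were called. The adjusted p rose to between 0.0770 and 0.161 without mouse 192, 194, 209, 210 or 277, and to 0.505 with all 6 groups in one fit. It fell to 0.00144 with the mouse as a block, to 0.000637 with DESeq2 and to 0.00500 without mouse 155. Cx3cr1 differed by -0.07 ± 0.07 (edgeR adjusted p = 0.485), and its level was below that of the input in 5 of 6 mice. Of the microglia list, 1 gene was higher and 3 were lower among 228 tested. The count of calls in this comparison depended on the fit: the mouse block took it from 840 to 5115 of 13748 genes, and leaving out 1 mouse to between 0 (without mouse 192, 209, 210 or 277) and 3815 (without mouse 155).

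Csf1, the ligand of CSF1R with the broader range of sources, had its highest mean in astrocyte RNA, where its levels overlapped those of whole tissue. The Aldh1l1-NuTRAP positive fractions of mice 290, 293 and 294 held 32.9, 42.8 and 42.4 CPM, against 15.2, 28.2 and 24.4 CPM in their negative fractions. The groups did not overlap, and the positive fraction held 1.51 to 2.17 times the level of the negative fraction of the same mouse. The log2 fold change was 1.14 ± 0.24 (edgeR adjusted p = 0.00602). Without mouse 294 the adjusted p was 0.0639 at a log2 fold change of 1.14. With scaling to library totals alone, the fold change was 0.79, against a median of -0.31 over all genes in place of 0.04, and the calls over all genes were 2436 higher and 4824 lower in place of 3569 and 3299.

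The rise of Csf1 was small beside that of astrocyte genes. Of the astrocyte list, 131 of 137 tested genes were higher and none was lower, with a median log2 fold change of 2.93, where 51.6% of all genes were called in either direction, and Csf1 ranked 2191 of 13319 genes from the top. Per 1000 CPM of that list, Csf1 was at 0.294 to 0.359 CPM in the positive and at 0.678 to 1.37 CPM in the negative fractions. Of the oligodendrocyte list, 36 genes were higher and 125 lower among 193 tested, with a median of -1.15.

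In microglial RNA Csf1 was the lowest of all groups by mean. It lay between 18.02 and 27.3 CPM in the 6 Cx3cr1-NuTRAP positive fractions (median 21.6 CPM), between 27.6 and 36.1 CPM in the inputs (median 29.96 CPM) and between 29.7 and 36.3 CPM in whole tissue (median 32.7 CPM). The positive fractions lay below all inputs and all whole tissue libraries. The fall was 0.47 against input (log2 fold change -0.47 ± 0.10, edgeR adjusted p = 0.00187) and 0.57 against whole tissue (log2 fold change -0.57 ± 0.11, edgeR adjusted p = 0.000720), and every mouse showed it. Against the negative fractions, at 20.9 CPM in mouse 155 and 27.03 to 30.2 CPM in the other 5 mice, the log2 fold change was -0.30 ± 0.11 (edgeR adjusted p = 0.0620), and it passed the threshold without mouse 155 (-0.37, edgeR adjusted p = 0.0142) or mouse 209 (-0.34, edgeR adjusted p = 0.0477). Beside these values, the medians of the astrocyte and oligodendrocyte lists against input were -0.33 and -0.47.

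Il34, the ligand of CSF1R known from neurons, was low in astrocyte RNA and near the input level in the microglial fraction. The Aldh1l1-NuTRAP positive fractions held 10.1, 12.8 and 12.0 CPM in mice 290, 293 and 294, and the negative fractions 64.5, 45.1 and 43.3 CPM. The log2 fold change was -1.78 ± 0.22 (edgeR adjusted p = 0.000571). The Cx3cr1-NuTRAP positive fractions lay between 32.0 and 40.5 CPM (median 33.7 CPM), the inputs between 34.4 and 39.3 CPM (median 36.9 CPM) and the negative fractions between 33.3 and 43.3 CPM (median 39.4 CPM).

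These 3 groups overlapped. Il34 differed between positive fraction and input by -0.05 ± 0.07 (edgeR adjusted p = 0.593) and between positive and negative fraction by -0.13 ± 0.08 (edgeR adjusted p = 0.257), and the sign against input turned when mouse 192 or 194 was left out. In whole tissue Il34 was lower, at 25.3, 27.2, 24.2, 33.3 and 29.1 CPM in mice 192, 194, 209, 210 and 277. Il34 was higher than in whole tissue by 0.37 ± 0.10 in the positive fraction (edgeR adjusted p = 0.00632) and by 0.42 ± 0.08 in the input (edgeR adjusted p = 0.00150), the latter in a comparison where 30.5% of genes were called.

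Cx3cl1, the neuronal chemokine that CX3CR1 binds, had the highest mean CPM of the 5 genes in all groups but the Cx3cr1-NuTRAP positive fraction and followed the pattern of Il34. It was at 133, 211 and 197 CPM in the Aldh1l1-NuTRAP positive fractions of mice 290, 293 and 294 and at 513, 782 and 801 CPM in the negative fractions, a log2 fold change of -1.61 ± 0.24 (edgeR adjusted p = 0.00122). Each positive fraction held 0.246 to 0.269 of the level of the negative fraction of its mouse, a narrower range than for any other member. In the Cx3cr1-NuTRAP mice it lay between 473 and 601 CPM in the positive fractions (median 556 CPM), between 508 and 642 CPM in the inputs (median 571 CPM) and between 491 and 649 CPM in the negative fractions (median 562 CPM).

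Positive fraction and input overlapped in Cx3cl1 and differed by -0.04 ± 0.07 (edgeR adjusted p = 0.7002). The difference from the negative fraction was -0.01 ± 0.08 (edgeR adjusted p = 0.947), and both signs turned under some of the alternatives. Whole tissue was at 392, 455, 375, 531 and 445 CPM in mice 192, 194, 209, 210 and 277. Cx3cl1 was higher than in whole tissue by 0.35 ± 0.10 in the positive fraction (edgeR adjusted p = 0.00929, and 0.0503 without mouse 192) and by 0.37 ± 0.09 in the input (edgeR adjusted p = 0.00475). Without the whole tissue library of mouse 210, the differences between input and whole tissue were 0.47 for Il34, 0.44 for Cx3cl1, 0.23 for Cx3cr1 and 0.20 for Csf1r, all 4 past the threshold, where 5618 of 13919 genes were called against 30.5% with that library. With that library, Csf1r and Cx3cr1 differed by 0.10 ± 0.08 and 0.10 ± 0.13 (edgeR adjusted p = 0.372 and 0.606).

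Neuronal RNA moved with both neuronal ligands in the Aldh1l1-NuTRAP fractions. Of the neuron list, 88 genes were lower and 1 was higher among 98 tested in positive against negative fraction, with a median of -1.55, where 51.6% of all genes were called, and the summed list was at 7204 to 8702 CPM against 27930 to 30193 CPM. Per 1000 CPM of that list, Cx3cl1 was at 18.5 to 24.4 CPM in the positive and at 18.4 to 26.6 CPM in the negative fractions, and Il34 at 1.38 to 1.49 CPM and 1.43 to 2.31 CPM. In the Cx3cr1-NuTRAP positive fractions the list summed to 22303 to 28193 CPM, against 28510 to 29399 CPM in the inputs, and Snap25, which neurons use for synaptic release, was at 1728 to 2928 CPM against 2650 to 2978 CPM. There, Cx3cl1 was at 20.1 to 25.4 CPM per 1000 CPM of the list and Il34 at 1.28 to 1.44 CPM, against 17.3 to 22.4 CPM and 1.19 to 1.37 CPM in the inputs. The part of neuronal RNA in the ligand levels of the microglial fraction was not tested.

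Between input and whole tissue the neuron list had 31 genes higher and 33 lower among 99 tested, with a median of -0.05, where 30.5% of all genes were called. Its summed level was higher in every input (28510 to 29399 CPM) than in every whole tissue library (26649 to 27881 CPM), the direction of Il34 and Cx3cl1, and its part in their levels was not tested. All 8 genes of the endothelial list were lower in the input, with a median of -1.30.

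**Figure D3:**
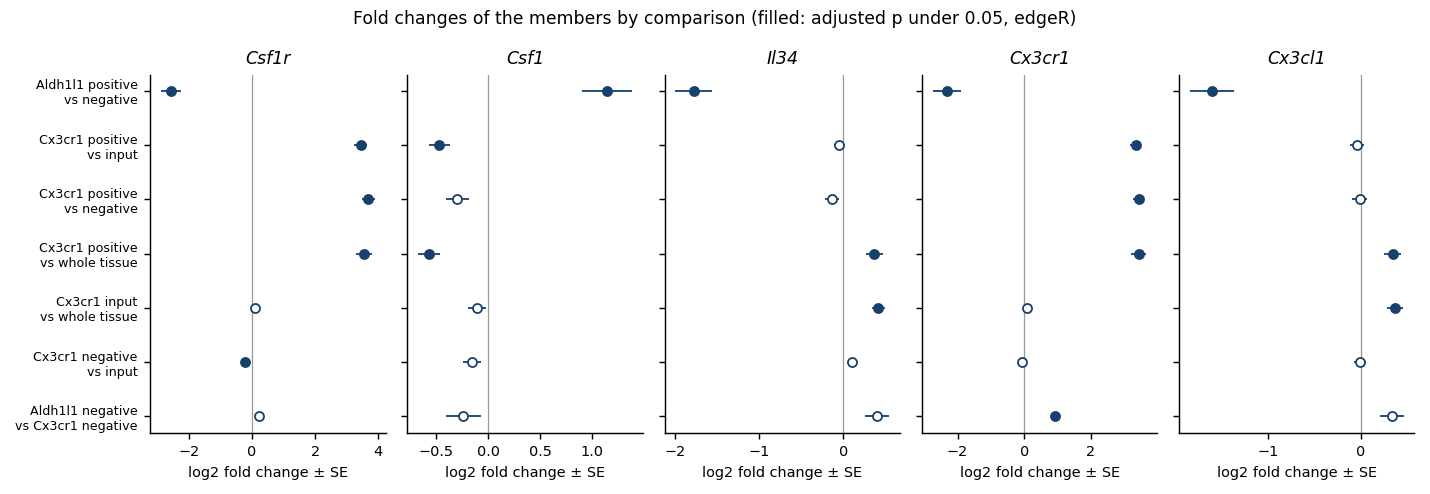
The log2 fold change of each gene with its SE (first group minus second, edgeR) in 7 comparisons, where the horizontal range differs between panels. Filled points had an adjusted p under 0.05. Csf1r and Cx3cr1 rise by 3.35 to 3.69 in the 3 comparisons of the Cx3cr1-NuTRAP positive fraction, in which Il34 and Cx3cl1 stay between -0.13 and 0.37.

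The positive fractions of the lines were also compared with each other, where line, mice and cell type cannot be told apart and 63.7% of 13676 genes were called. In astrocyte against microglial RNA, Csf1r differed by -6.10 ± 0.47, Cx3cr1 by -4.88 ± 0.46 (-5.54 without mouse 290), Cx3cl1 by -1.30 ± 0.15, Il34 by -1.28 ± 0.13 and Csf1 by 1.15 ± 0.14, with edgeR adjusted p-values between 1.04e-06 and 3.67e-05. Csf1 was the only member higher in astrocyte RNA. The contrast of positive with negative fraction also differed between the lines for all 5 members (interaction in one edgeR fit, where 55.4% of genes were called), by -6.32 ± 0.41 for Csf1r, -5.82 ± 0.43 for Cx3cr1, -1.68 ± 0.19 for Il34, -1.64 ± 0.20 for Cx3cl1 and 1.39 ± 0.23 for Csf1, as Aldh1l1-NuTRAP minus Cx3cr1-NuTRAP on the log2 scale. These comparisons share the positive fractions. With scaling to library totals alone, the median over all genes moved from -0.08 to -0.39 in the first of them and from -0.11 to -0.39 in the second, and calls from 4188 higher and 4530 lower to 2875 and 6312, and from 3572 and 4179 to 2600 and 5719.

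Divided by exon length, the levels of different genes can be set beside each other. Lengths are exon bases of the union of transcripts in GENCODE, and values are mean CPM per kilobase. In microglial RNA Csf1r (158 ± 59.5, SD, n = 6) and Cx3cl1 (140 ± 10.8) were the most abundant and their libraries overlapped, followed by Cx3cr1 (60.8 ± 18.8), Il34 (17.97 ± 1.72) and Csf1 (4.16 ± 0.58). Cx3cl1, Il34 and Csf1 were not higher there than in input. The part of RNA of other cells in these levels, and in those of astrocyte RNA below, was not tested. In input the order was Cx3cl1 (145 ± 12.2), Il34 (18.8 ± 0.95), Csf1r (14.7 ± 0.47), Cx3cr1 (6.06 ± 0.28) and Csf1 (5.82 ± 0.64), where the libraries of the last pair overlapped. With the length of the longest transcript instead, that pair changed order in the input, at 7.36 ± 0.81 for Csf1 and 6.07 ± 0.28 for Cx3cr1, and no longer overlapped. In astrocyte RNA the order was Cx3cl1 (45.8 ± 10.54, SD, n = 3), Csf1 (7.45 ± 1.06), Il34 (5.95 ± 0.71), Csf1r (1.88 ± 0.85) and Cx3cr1 (1.70 ± 1.096). The libraries of Csf1 and Il34 overlapped there, as did those of Csf1r and Cx3cr1, and mouse 290 had more Cx3cr1 than Csf1r. With the longest transcript as length, Csf1 and Il34 no longer overlapped in astrocyte RNA (7.88 to 10.24 against 5.64 to 7.15), and mouse 290 had more Csf1r (3.51) than Cx3cr1 (2.97).

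The balance of receptor and ligand within a library followed from these levels. The ratio of Csf1r to Csf1 in CPM was 21.7 to 74.9 in the microglial fraction, 2.33 to 3.12 in the input, 2.91 to 5.22 in the Aldh1l1-NuTRAP negative fraction and 0.181 to 0.501 in astrocyte RNA. That of Csf1r to Il34 was 14.6 to 48.7 in the microglial fraction and 2.03 to 2.52 in the input. It was 0.636 to 1.63 in astrocyte RNA and 1.23 to 1.93 in the Aldh1l1-NuTRAP negative fraction, and these overlapped. In mouse 290 it was higher in the positive fraction (1.63 against 1.23). Per kilobase this ratio was 4.96 to 16.5 in the microglial fraction, 0.687 to 0.855 in the input and 0.216 to 0.553 in astrocyte RNA. In the input, Il34 was thus above Csf1r per kilobase. For the fractalkine pair, the ratio of Cx3cr1 to Cx3cl1 was 0.330 to 0.768 in the microglial fraction and no more than 0.104 in any library of the other 5 groups. Line and the knock-in at Cx3cr1 cannot be told apart in this ratio, and Cx3cl1 was not higher in the microglial fraction than in input.

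The balance between the ligands of CSF1R differed between fractions. The ratio of Csf1 to Il34 in CPM was 3.25 to 3.53 in astrocyte RNA, against 0.236 to 0.627 in the negative fractions of the same mice and 0.533 to 0.680 in microglial RNA. Per kilobase, it was 1.21 to 1.31 in astrocyte RNA and 0.198 to 0.252 in microglial RNA. Input and whole tissue, at 0.704 to 1.03 and 0.938 to 1.4998 in CPM, overlapped in this ratio, and 4 of 5 whole tissue libraries and the input of mouse 210 were above 1. Per kilobase they were at 0.261 to 0.383 and 0.348 to 0.556, with none above 1.

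**Figure D4:**
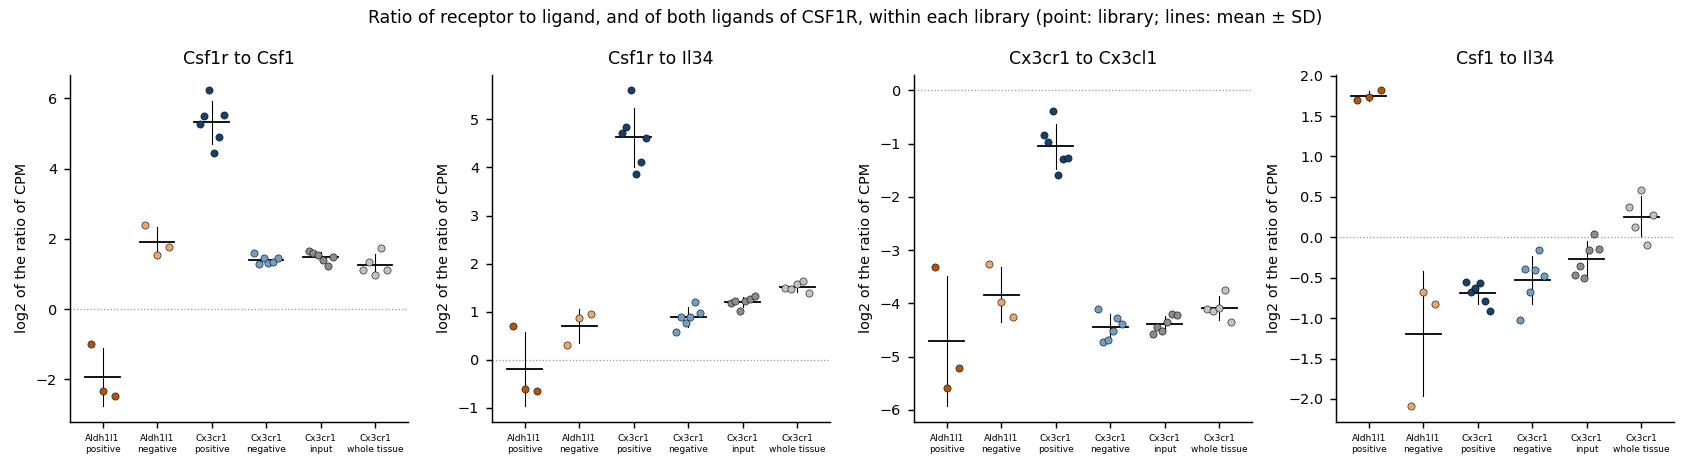
log2 of the ratio of CPM of receptor to ligand, and of Csf1 to Il34, in each library by group (points), with mean and SD; the dotted line marks equal CPM and the vertical range differs between panels. The microglial fraction stands above all other groups in the first 3 ratios, and astrocyte RNA stands above all others in Csf1 to Il34.

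Genes whose log2 CPM ran most like each member over the 29 libraries were named by Pearson's r among 14109 genes, as a description, since all libraries share the contrast of fractions. For Csf1r these were Selplg, Slc2a5, Fcer1g, Ly86 and Inpp5d (r = 0.99 for each), and for Cx3cr1 Fcrls, Ncf1, C1qc, Laptm5 and Havcr2 (r = 0.98 to 0.99). For Csf1 they were Gclm, Folh1, Egfr, Sema6d and Ficd (r = 0.94), for Il34 Stk32c, Tbpl1, Gprin1, Dusp8 and Slc30a3 (r = 0.94 to 0.96), and for Cx3cl1 Dlg4, which codes for the postsynaptic scaffold PSD-95, with Slc25a22, Cacnb3, Sprn and Fbxl16 (r = 0.96 to 0.98). Among the members, r was 0.88 between Il34 and Cx3cl1 and -0.82 between the alternative ligands Csf1 and Il34.

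The signalling genes downstream of CSF1R were followed as a list of 14 genes, all of which were tested. In microglial RNA against input 11 were higher and 3 lower, with a median log2 fold change of 2.43 against -0.00 for all genes, of which 48.9% were called. Tyrobp, which codes for the adaptor DAP12, was higher by 3.92 ± 0.25, Lyn, a kinase of the Src family, by 2.31 ± 0.16, and Ptpn6 and Inpp5d, phosphatases that restrain receptor signals, by 3.68 ± 0.21 and 2.92 ± 0.18. The lower genes were Cbl, a ubiquitin ligase that removes activated receptors, at -1.10 ± 0.26, Sos1 at -0.47 ± 0.09 and Pik3r1 at -0.25 ± 0.06.

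In astrocyte RNA against the negative fraction 2 genes of this list were higher and 6 lower, with a median of -0.49 against 0.04 for all genes, and the share called was near the 51.6% of all genes. Lyn was higher by 1.52 ± 0.26 and Shc1, an adaptor of receptor kinases, by 0.85 ± 0.18, while Tyrobp was lower at -3.03 ± 0.39. Several genes of the list are microglial markers, so the list does not stand for the pathway alone.

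Transcription factors that regulate Csf1r in myeloid cells were all higher in microglial RNA than in input, 5 of 5 where 48.9% of all genes were called in either direction. Sfpi1, which codes for PU.1, was higher by 3.95 ± 0.22, Irf8 by 3.30 ± 0.18, Cebpa by 2.54 ± 0.16, Runx1 by 2.43 ± 0.25 and Cebpb by 1.12 ± 0.13, and the median of the 5 genes was 2.54. In astrocyte RNA Cebpa was higher than in the negative fraction by 1.95 ± 0.17, at a mean of 44.3 CPM against 14.6 CPM, while Sfpi1 (-1.90 ± 0.60) and Irf8 (-1.52 ± 0.30) were lower and Cebpb and Runx1 were not called, beside 51.6% of all genes called.

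The receptors for the other colony-stimulating factors were higher in microglial RNA. Csf2rb (3.08 ± 0.21), Csf3r (2.44 ± 0.17), Csf2rb2 (2.26 ± 0.25) and Csf2ra (1.43 ± 0.33) were all higher than in input, 4 of 4 tested beside 48.9% of all genes called. Only 3 of them passed the filter on low counts in negative fraction against input, so the count of 4 partly rests on the filter. In astrocyte RNA against the negative fraction 1 of 3 tested was lower, beside 51.6% of all genes called, Csf3r at -1.88 ± 0.33, and Csf2ra (-0.20 ± 0.24) and Csf2rb2 (-1.72 ± 0.63) were not called. Csf2 and Csf3, the ligands of this system, did not pass the filter on low counts and averaged at most 0.152 CPM in every group.

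The class III receptor kinases related to CSF1R were of mixed direction. Of Kit, Flt3, Pdgfra and Pdgfrb, none was higher in microglial RNA than in input and 2 were lower, Pdgfra, a gene of oligodendrocyte precursors, at -1.27 ± 0.15 and Pdgfrb, a gene of pericytes, at -0.79 ± 0.13. Kit, a receptor of mast cells and some neurons, was higher in microglial RNA than in the negative fraction (0.32 ± 0.08) and whole tissue (1.05 ± 0.15). In astrocyte RNA Pdgfrb was higher than in the negative fraction by 1.62 ± 0.15 and the other 3 were lower, beside 51.6% of all genes called. Of their 6 ligands, Pdgfb (0.91 ± 0.11) and Flt3l (1.40 ± 0.31) were higher in microglial RNA and 3 were lower. The share called among the receptors in microglial RNA against input was near the 48.9% of all genes. The endothelial list, in whose cells Pdgfb is also used, had 3 genes higher and none lower of 8 in this comparison, with summed levels of 95.3 to 204 CPM against 108 to 124 CPM in the inputs, and its part in the ligand levels was not tested. Pericyte and smooth muscle genes, Pdgfrb among them, summed to 58.2 to 75.5 CPM in the Aldh1l1-NuTRAP positive fractions. In the negative fractions they summed to 40.6 to 61.8 CPM, and their part in the level of Pdgfrb was not tested.

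Ptprz1 and Sdc1 code for the other cell surface partners reported for IL-34. Ptprz1, a receptor phosphatase of astrocytes and oligodendrocyte precursors, was higher in astrocyte RNA than in the negative fraction by 1.01 ± 0.27 and lower in microglial RNA than in input (-0.99 ± 0.14). Sdc1 was not called in either comparison (-0.31 ± 0.34 and -0.11 ± 0.19).

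The genes around CX3CR1 were of mixed direction. Of 10 genes for G protein subunits, lipid kinases, a receptor kinase, arrestins and the integrin subunits that bind fractalkine, 5 were higher and 2 lower in microglial RNA than in input, with a median of 0.41, where 48.9% of all genes were called in either direction. Pik3cg and Pik3r5, the catalytic and a regulatory subunit of the lipid kinase that G protein-coupled receptors activate, were higher by 3.02 ± 0.17 and 2.33 ± 0.21, Itgb3 by 1.57 ± 0.16, Arrb2 by 1.35 ± 0.19 and Gnai2 by 0.67 ± 0.07. In astrocyte RNA 4 of 9 tested were higher and 4 lower, where 51.6% of all genes were called, with Gnai2 higher by 2.43 ± 0.15 and Gnai1 lower at -1.75 ± 0.15.

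For the release of CX3CL1 from the membrane, 6 genes were followed. Of these, 3 were higher and 2 lower in microglial RNA against input, where 48.9% of all genes were called. In astrocyte RNA against the negative fraction 3 were higher and 1 lower, where 51.6% were called. Ctss, which codes for the lysosomal protease cathepsin S that microglia secrete, was higher in microglial RNA than in input by 3.73 ± 0.17, at 949 CPM against 72.3 CPM by mean. Adam17, a sheddase, was higher by 0.73 ± 0.15 and its partner Rhbdf2 by 1.08 ± 0.26, while Adam10, a sheddase of many neuronal proteins, was lower at -0.34 ± 0.06 and Timp3, an inhibitor of ADAM17, at -0.49 ± 0.12. In astrocyte RNA Timp3 (2.48 ± 0.20), Rhbdf1 (2.07 ± 0.19) and Adam17 (0.89 ± 0.15) were higher than in the negative fraction and Ctss was lower (-2.50 ± 0.65).

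**Figure D5:**
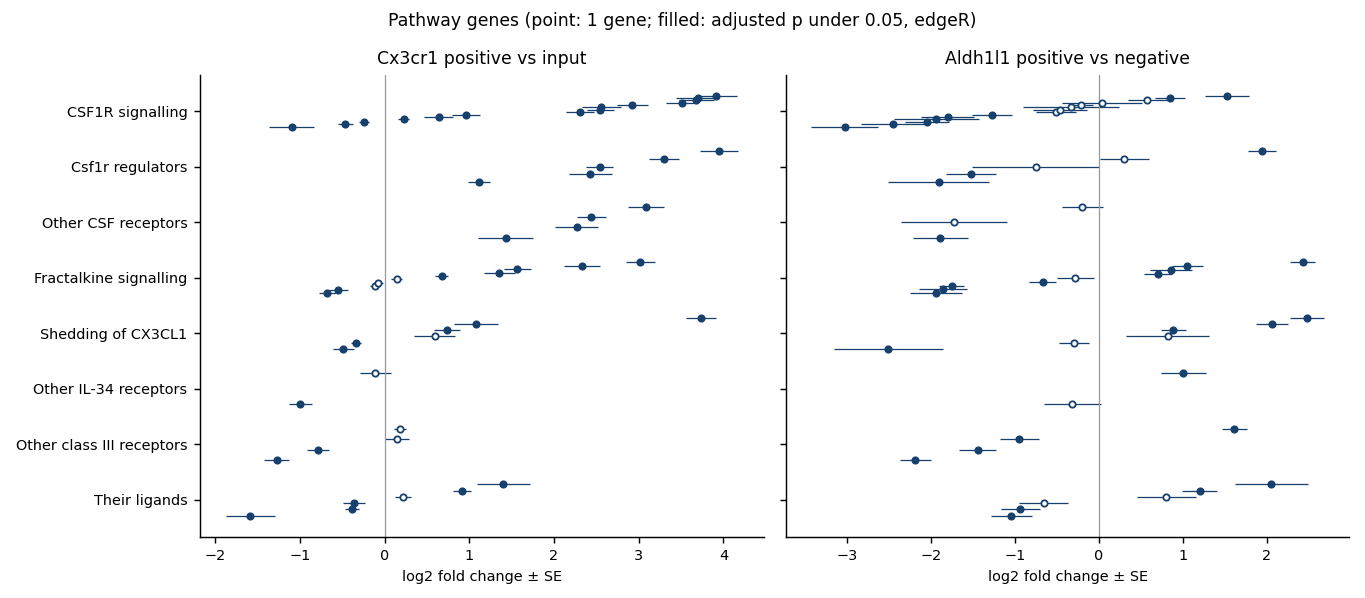
The log2 fold change with its SE (edgeR) of each tested gene of the 8 pathway lists, one point per gene, in microglial RNA against input (left) and in astrocyte RNA against the negative fraction (right). Filled points had an adjusted p under 0.05. On the left 11 of 14 CSF1R signalling genes, 5 of 5 regulators and 4 of 4 other colony-stimulating factor receptors are higher. In that comparison 48.9% of all genes were called in either direction. Several CSF1R signalling genes are microglial markers, and the count of 4 partly rests on the filter on low counts.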

How the data were processed

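RNAseq libraries of polyA RNA were strand-specific. Alignment (mm10, RefSeq transcripts) and quantification were run by the authors in Strand NGS, and the deposited raw values are expected counts, of which 82.8% of nonzero values are not whole. They were rounded before testing. The deposited log2 values, which the authors made with DESeq normalization, were not used. 0 columns of per-sample values lacked a sample.

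The test was edgeR 4.0.16 (R 4.3.3), quasi-likelihood, robust and two-sided, with TMM scaling, over the whole table and on only the groups compared. A gene entered it if one of these groups exceeded 20 counts throughout. P-values were adjusted after Benjamini and Hochberg, with a threshold of 0.05. Fold changes use TMM scaling and so need not equal ratios of CPM. Log2 CPM for likeness used a prior count of 2. The step was tested on simulated data. Python 3.11.15, pandas 2.3.3 and matplotlib 3.10.9 were used for descriptions.

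The 5 genes and all lists were chosen with earlier results of these data known. The genes named are these, the 5 most like each, and the pathway lists. Cell type lists are the study's, without the 5 genes, and hand-written ones. For 3 further lists the calls are given here only. Pericyte and smooth muscle genes had 1 higher and 3 lower of 6 tested in Cx3cr1-NuTRAP positive fraction against input. They had 2 and 1 in Aldh1l1-NuTRAP positive against negative fraction. Erythrocyte genes had 0 and 0 of 3, and 0 and 3, and monocyte and neutrophil genes had 0 tested. Over all genes, 48.9% and 51.6% were called in these comparisons. Alternatives were other scalings, DESeq2 1.42.0, filters, one fit over all 6 groups, a mouse block and leaving out each mouse. Fractions pair by mouse, since they come from the same animal. Deviations from the group means correlated above 0.1 within 3 of 3 Aldh1l1-NuTRAP mice. In the other line this held for negative fraction and input in 5 of 6 mice, for the positive fraction with each of these in 3 of 6, and for whole tissue in 0 of 5. The lowest count of a member was 92, for Cx3cr1 in astrocyte RNA. SD and p cover the spread between mice.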

Additional observations from a re-analysis of the deposited data

Results flagged for a closer look

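In 6 cases a library stood apart within their group by Dixon's test, which 44 groups of 4 to 10 libraries entered and which flags about 1 in 20 groups by chance. Whole tissue of mouse 210, the library with the lowest total, was at 103.7 CPM for Csf1r, where the other 4 lay between 71.2 and 76.1 CPM, and at 39.6 CPM for Cx3cr1, where the others lay between 21.7 and 25.9 CPM. The positive fraction of Cx3cr1-NuTRAP mouse 194 was at 436 CPM for Cx3cr1, against 199 to 285 CPM in the other 5. The input of mouse 194 was at 79.6 CPM for Csf1r, against 84.1 to 86.7 CPM. The negative fraction of mouse 155 was at 20.9 CPM for Csf1, against 27.03 to 30.2 CPM, and at 2.21 for the ratio of Csf1r to Cx3cr1, against 2.82 to 3.15.

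The ratio of positive to negative fraction differed between the lines for all 5 members by the interaction of line and fraction in one edgeR fit, in which 55.4% of 13983 genes were called. The difference, Aldh1l1-NuTRAP minus Cx3cr1-NuTRAP on the log2 scale, was -6.32 for Csf1r, -5.82 for Cx3cr1, -1.68 for Il34, -1.64 for Cx3cl1 and 1.39 for Csf1, with edgeR adjusted p-values between 5.01e-10 and 5.63e-05. Each member kept its direction and its call under all 16 alternatives.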

How the results depend on the processing

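Of 615 alternatives over the 45 fold changes of the members, 582 kept direction and call, 14 lost a call, 9 gained one and 10 turned a sign, these last all in fold changes that were not called. With each mouse left out in turn, log2 fold changes in Aldh1l1-NuTRAP positive against negative fraction ranged from 1.00 to 1.25 for Csf1. In Cx3cr1-NuTRAP mice they ranged, for positive fraction against input, from -0.084 to 0.026 for Il34 and from -0.066 to 0.016 for Cx3cl1, and against the negative fraction from -0.37 to -0.24 for Csf1 and from -0.035 to 0.028 for Cx3cl1. The range was 0.27 to 0.41 for Cx3cl1 in positive fraction against whole tissue. For negative fraction against input it was -0.24 to -0.18 for Csf1r and -0.019 to 0.037 for Cx3cl1, for input against whole tissue 0.037 to 0.20 for Csf1r and 0.017 to 0.23 for Cx3cr1, and between the negative fractions of the lines 0.83 to 1.03 for Cx3cr1 and 0.24 to 0.49 for Cx3cl1. Among other settings, Csf1 in positive against negative fraction gained a call with library totals only (-0.32) and DESeq2 (-0.29), and Cx3cl1 there turned sign at a minimum of 100 counts (0.014) and in one fit over all 6 groups (0.013). That fit ended the calls of Csf1r in negative fraction against input (-0.23) and of Cx3cr1 between negative fractions (0.96). Without whole tissue of mouse 210, Csf1r (0.20) and Cx3cr1 (0.23) gained calls in input against whole tissue. The cause was not tested.

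Counts of genes called moved most where few were called. In negative fraction against input, 840 became 2056 with DESeq2, 281 with no filter, 59 in the fit over all 6 groups, and 0 to 3815 without 1 mouse. The 0 arose without mouse 192, 209, 210 or 277, with 2753 to 3868 genes at an unadjusted edgeR p under 0.05, and the 3815 without mouse 155. Input against whole tissue went from 4144 to 2458 in that fit and to 2549 to 5395 without 1 mouse. Between the negative fractions, 34 became 517 with DESeq2, 14 with no filter and 0 to 133 without 1 mouse, the 0 without Aldh1l1-NuTRAP mouse 293, with 1572 genes at an unadjusted edgeR p under 0.05. Without 1 mouse, Aldh1l1-NuTRAP positive against negative fraction ranged from 3587 to 9731 and Cx3cr1-NuTRAP positive against negative fraction from 1747 to 4273.

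With the mouse as a replicate block, genes called in negative fraction against input rose from 840 to 5115, and no member's call changed in the 7 comparisons that have this fit. The comparisons of one fraction between lines share no mouse and have none. With the longest transcript as length, Csf1 and Cx3cr1 changed order in the input. Counting precision was lowest for Cx3cr1 in astrocyte RNA, at 92 to 159 counts, the lowest of them in a library of ordinary total.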
